A study of Nicotiana attenuata with 6 samples.

Results

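The subject is a set of array probes named for proteins of the plastid genome, read in RNA from peduncles of coyote tobacco (Nicotiana attenuata). A probe was a member if the protein part of its name, such as RBL in RBL_VITSX, was that of a plastid gene product. The rule used names alone, and it found 79 of the 59157 probes, each on its own contig. The 79 probes carried 41 protein names and the codes of 53 plant species, since each name is that of a matching protein in a sequence database. A Nicotiana species gave the name of 6 probes, and 70 probes were named from plants outside the nightshade family. Gene identity therefore rests on a match to a relative, and several probes can share a protein name.

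RNA came from pooled peduncles, that is, flower stalks, whose bending moves the flower. The EV pools (n = 3) were from plants transformed with an empty vector, and the irZTL pools (n = 3) from one RNA interference line, irZTL-314, silenced for ZEITLUPE (ZTL), a blue-light receptor that targets clock proteins for degradation. Both kinds of plant grew in a glasshouse with 16 h of light and 8 h of dark, and peduncles were taken when the lights came on (ZT0), on the day that flower movement begins. Plant age is not in the labels, nor is whether pools shared plants, so the p-values measure the spread between these pools, which may be technical.

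The plastid genome encodes core subunits of the photosystems, the ATP synthase and the NDH complex, the large subunit of Rubisco, an RNA polymerase of bacterial type, and part of the plastid ribosome. Most other plastid proteins are made from nuclear genes and imported. Per the labels, RNA was labelled with the Quick Amp kit, which copies RNA from its poly(A) tail. Stable plastid mRNAs mostly lack such a tail, so the signal of these probes need not follow the amount of plastid mRNA. In pooled stalks, fewer green cells and less plastid RNA per cell cannot be told apart.

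The files print no probe sequences, so none are shown. Between 29224 and 30173 probes per array were well above background, and the signal at the 75th percentile was 239 to 327. The silenced transcript was not analysed here, since 0 probe names held ZTL or adagio. By scan identifiers, slide 1 held irZTL replicates 1 and 2, and slide 2 held the EV arrays together with irZTL replicate 3. All 4 probes on a list of nuclear green-tissue markers, for chlorophyll a/b-binding proteins, Rubisco small subunit and Rubisco activase, were well above background on all 6 arrays, with a summed level of 10.10 to 10.41 log2 in EV and 10.05 to 10.27 in irZTL. That sum was carried by RBS2_NICSY, a Rubisco small-subunit probe, which differed by -0.05 between irZTL and EV, while the others were lower in irZTL, by -2.46 (CB23_TOBAC), -1.70 (CB23_SOLLC, limma adjusted p = 0.0610) and -1.34 (RCA_SOLPN). Of 2 pollen and anther markers, 1 was well above background on all 6 arrays, and their summed level was -0.92 to -0.03 in EV and -1.68 to -0.12 in irZTL. The 1 on all arrays, POLC2_TOBAC, differed by -0.60 between irZTL and EV (limma adjusted p = 0.0460). LAT52_SOLLC differed by -0.96 (limma adjusted p = 0.712). The part of either marker list in the plastid values was not tested.

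Of the 79 plastid probes, 49 were well above background on all 6 arrays. A probe is called measured where every array of one genotype, or of both, passed that limit, and the same 49 members met this rule. Another 2 probes passed on some arrays and 28 on none. The measured share was 62.0%, against 48.5% of all probes on the array. It was 53% among the other probes with a readable protein name, and 64.3% among the 14 with mitochondrial protein names. The 28 probes that passed on no array had processed signals of 2.56 to 15.7, and the 49 measured probes had 23.0 to 60122. None of the 79 was saturated on any array, and none was above background on every array of one genotype but none of the other. Both groups thus held the same 49 measured probes.

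**Figure D1:**
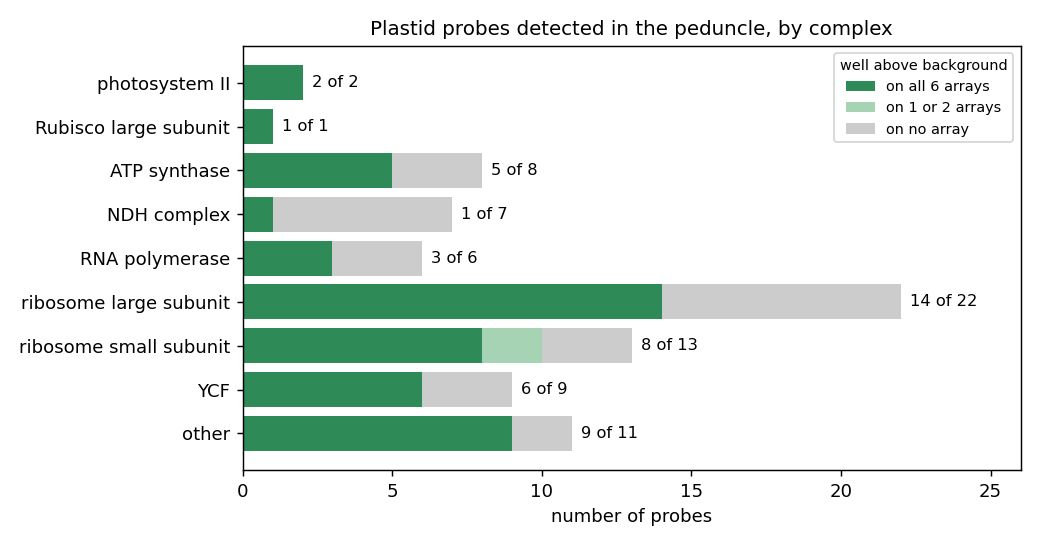
Number of plastid probes by complex (bars, number of probes) that were well above background on all 6 arrays, on 1 or 2 arrays, or on no array. The NDH complex stands out with 1 of 7 probes measured, and the label at each bar gives the count on all 6 arrays.

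Detection is given by complex as counts without a test, since several classes held few probes. Among photosynthesis genes, both photosystem II probes, the single Rubisco probe and 5 of 8 ATP synthase probes were measured. Of the 7 probes for the NDH complex, which returns electrons to the plastoquinone pool around photosystem I, 1 was measured, NU4LC_PELHO. The other NDH probes, NDHJ_HELAN, NU4C_VITVI, NU4LC_AETCO, NU4LC_TRACE, NU6C_CUCSA and NU6C_EUCGG, were not well above background on any array. No probe was matched for photosystem I or the cytochrome b6f complex, which are not analysed here.

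Of the gene expression machinery, 3 of 6 RNA polymerase probes and 22 of 35 ribosomal probes were measured, 14 of 22 for the large subunit (RK names) and 8 of 13 for the small subunit (RR names). RR19_PEA was well above background on 2 arrays and RR3_OENEH on 1. Of the YCF names, conserved reading frames first named without a known function, 6 of 9 probes were measured. The remaining 11 probes, named for MATK, CLPP, ACCD, CEMA and CCSA, had 9 measured.

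Probes of one protein name often disagreed in detection. Of 23 names with several probes, 14 had measured and unmeasured probes side by side, 8 had every probe measured, and 1 (NU6C) had none. RK22, a large-subunit protein, had 10 probes named from 10 species, of which 5 were measured. RPOC1, the beta' subunit of the RNA polymerase, had 4 probes. RPOC1_OENBI was among the brightest members and read 28668 to 39096 in processed signal, while RPOC1_TOBAC, RPOC1_CUSEX and RPOC1_SPIOL were at background. Detection thus differed between probes of one name, and whether this lies in the probe, the contig or the gene was not tested. An unmeasured probe does not show that its gene is silent.

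The members did not all belong to the plastid genome. As background, RK28_TOBAC and RK121_SECCE name plastid ribosomal proteins that are encoded in the nucleus and imported. Both probes were measured, so 47 of the 49 measured probes were named for plastid-encoded proteins.

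Levels below are log2 processed signal minus the array's 75th percentile, so that 0 is the signal of the probe at that percentile. Values are listed for replicates 1, 2 and 3 in that order. Of the 49 measured probes, 37 had a mean level above 0, 21 lay on average above the 95th percentile of all probes on the array, and 5 above the 99th. Brightness also depends on the probe's sequence, so no order of transcript amounts is read from it.

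None of the 49 measured probes passed the threshold for irZTL against EV, an adjusted p under 0.05 in limma with more than 2-fold change. Of all 28684 measured probes on the array, 1.75% passed (503 probes), 0.899% of all being higher in irZTL and 0.854% lower. Without the fold minimum, 0 members and 4.04% of all measured probes had an adjusted p under 0.05. At an unadjusted p under 0.05, 2 members passed, against 20.1% of all. The groups did not overlap in 3 members, against 25.2% of all measured probes. Of the 3, irZTL was higher in 2 (12% of all measured probes) and lower in 1 (13.2%). With 3 arrays against 3, an exact permutation test of a single probe cannot go below p = 0.1.

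Differences, given as irZTL minus EV in log2 with the standard error from limma, ran from -0.46 to 0.45 among the members, with a median of -0.01. The median over all measured probes was also -0.01. A positive difference was found in 21 members and a negative one in 28, against 51% negative over all measured probes. The 95% interval of the difference stayed within 2-fold either way in 49 of 49 members, against 86.6% of all measured probes. The widest reach of any interval was 0.95. For these pools and this fit, which leaves slide out, changes of more than 2-fold lay outside the interval of every measured plastid probe.

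**Figure D2:**
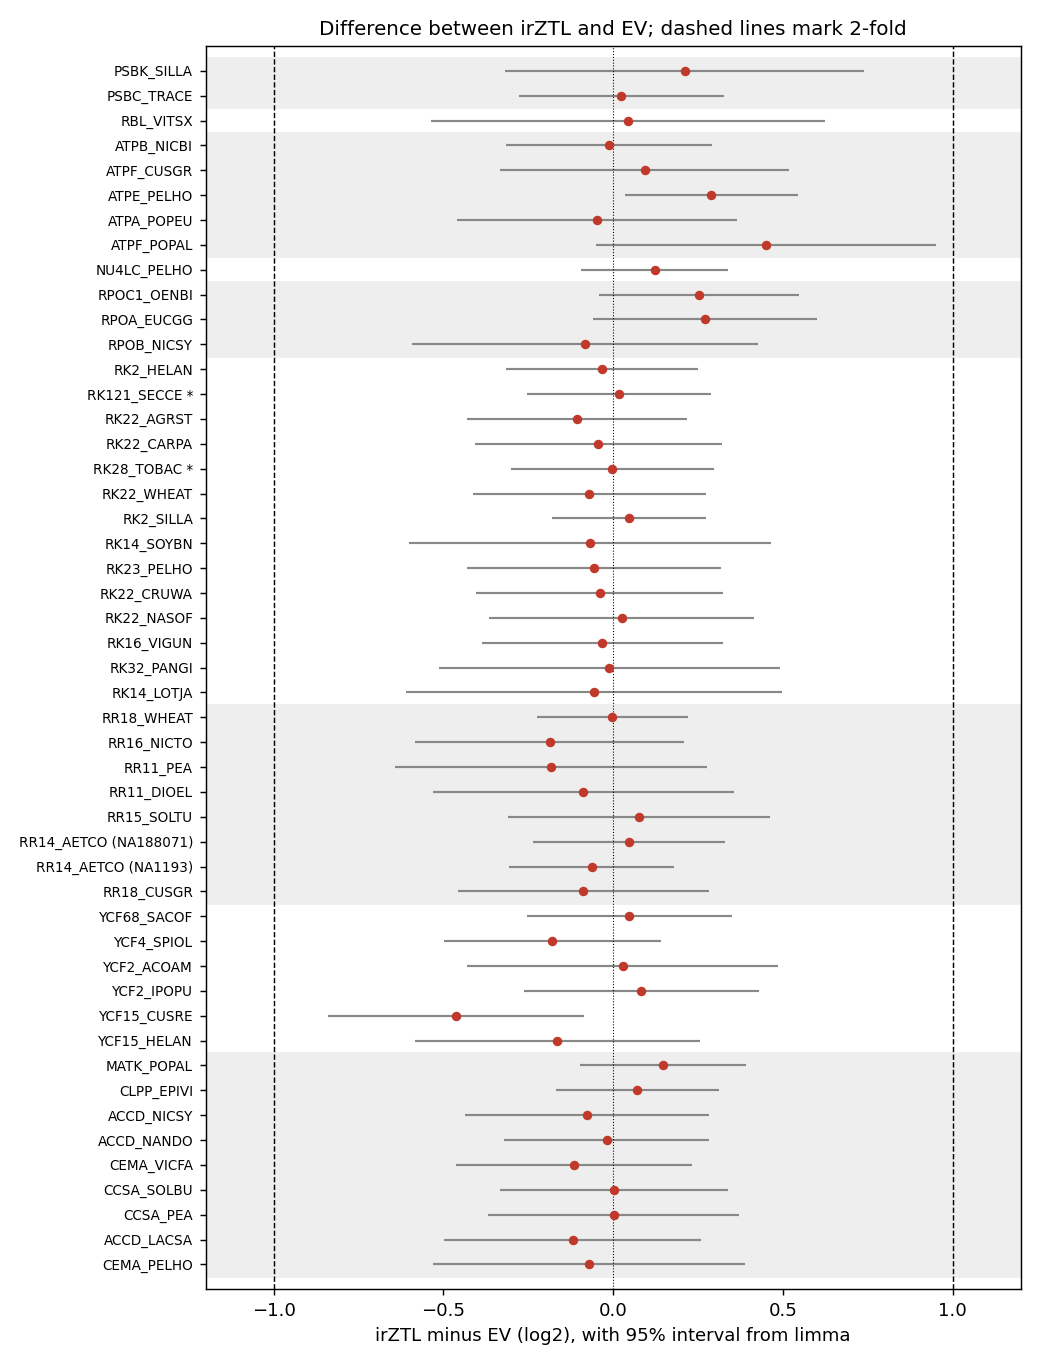
Difference between irZTL and EV for each of the 49 measured plastid probes (points, log2, with 95% interval from limma as lines, 3 arrays per group), grouped by complex in shaded bands; an asterisk marks the 2 probes named for nuclear-encoded proteins. All intervals lie between the dashed lines at 2-fold, and only those of ATPE_PELHO and YCF15_CUSRE leave out 0.

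Of 9 measured nuclear photosynthesis probes, 7 were lower and 2 higher in irZTL, with a median of -0.05, a range of -2.46 to 0.35 and 3 at an unadjusted p under 0.05. CB23_TOBAC, a nuclear chlorophyll a/b-binding protein, read 4.67, 4.95 and 5.14 in EV and 2.34, 2.15 and 2.90 in irZTL, a difference of -2.46 ± 0.22 (limma adjusted p = 0.00495). RCA_SOLPN, nuclear Rubisco activase, differed by -1.34 ± 0.12 (limma adjusted p = 0.00540). No plastid probe differed by as much, and the difference between the nuclear and the plastid probes was not tested.

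RBL_VITSX, the large subunit of Rubisco, which fixes carbon dioxide, had the brightest signal among the members (39509 to 60122 in processed signal). Its level was 7.84, 6.99 and 7.54 in EV and 7.81, 7.40 and 7.30 in irZTL. The EV pools spanned the whole range of the irZTL pools, and the difference was 0.04 ± 0.24 (limma adjusted p = 0.945, 95% interval -0.54 to 0.62). EV replicate 2 alone set the low end.

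In photosystem II, which splits water, PSBK_SILLA, a small core subunit, read 4.34, 5.02 and 5.19 in EV and 4.95, 5.13 and 5.10 in irZTL. EV replicate 1 was low and the other pools overlapped, so the difference of 0.21 ± 0.22 was within the replicate spread (adjusted p = 0.654). Without EV replicate 1 it was -0.04. PSBC_TRACE, the gene of a core antenna subunit, read 0.89, 0.95 and 1.15 in EV and 1.16, 0.83 and 1.07 in irZTL, which differed by 0.02 ± 0.13.

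The ATP synthase, which makes ATP from the proton gradient across the thylakoid membrane, held the largest positive differences. ATPF_POPAL, named for a stalk subunit of the membrane part, read 0.71, 0.15 and 0.30 in EV and 1.10, 0.48 and 0.94 in irZTL. EV replicate 1 lay above irZTL replicate 2, so the groups overlapped. The difference of 0.45 ± 0.21 did not pass (limma adjusted p = 0.296, or 0.0661 with the replicate number as a block). The other measured ATPF probe, ATPF_CUSGR, read 3.61, 3.15 and 3.29 in EV and 3.55, 3.14 and 3.63 in irZTL, a difference of 0.09 ± 0.18.

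ATPE_PELHO, the epsilon subunit of the catalytic part, read 2.17, 2.00 and 2.06 in EV and 2.50, 2.24 and 2.35 in irZTL. Each irZTL pool lay above each EV pool, and the difference was 0.29 ± 0.11 (unadjusted p = 0.0318, limma adjusted p = 0.200). ATPB_NICBI, the catalytic beta subunit, read 3.66, 3.67 and 3.70 in EV and 3.68, 3.44 and 3.88 in irZTL, a difference of -0.01 ± 0.13. The EV values were nearly equal and irZTL spread to both sides of them. ATPA_POPEU, the alpha subunit, differed by -0.05 ± 0.17. The measured ATP synthase probes thus had a median of 0.09, 3 with a positive and 2 with a negative difference, and 0 of 5 passed.

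The one measured NDH probe, NU4LC_PELHO, read 1.42, 1.35 and 1.42 in EV and 1.42, 1.57 and 1.57 in irZTL. The groups met at irZTL replicate 1, and the difference was 0.12 ± 0.09 (adjusted p = 0.514).

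The plastid-encoded RNA polymerase transcribes most photosynthesis genes of the plastid. RPOC1_OENBI read 7.04, 6.68 and 6.91 in EV and 7.18, 7.00 and 7.20 in irZTL. The groups overlapped slightly, and the difference was 0.25 ± 0.12 (limma adjusted p = 0.318). RPOA_EUCGG, the alpha subunit, lay higher in each irZTL pool than in each EV pool and differed by 0.27 ± 0.14 (limma adjusted p = 0.337).

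RPOB_NICSY, the beta subunit, was dimmer and differed by -0.08 ± 0.21. It read -1.05, -1.57 and -0.94 in EV and -1.52, -1.33 and -0.96 in irZTL, so each group spanned nearly the same range. Its difference was under its standard error and turned in sign under 4 settings, so neither a shared nor an unlike direction of the 3 subunits is read. Of the 3, 0 passed.

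The plastid ribosome had the most members, and its differences were small. The 22 measured ribosomal probes ran from -0.19 to 0.08 with a median of -0.04, 17 with a negative and 5 with a positive difference, and 0 passed. The lowest adjusted p among them was 0.594 in limma. The groups overlapped in every one of the 22.

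RK2_HELAN, a large-subunit protein near the peptide-bond forming centre, read 6.15, 5.96 and 6.23 in EV and 5.98, 6.01 and 6.24 in irZTL, a difference of -0.03 ± 0.12. The second RK2 probe, RK2_SILLA, read 4.74, 4.59 and 4.74 in EV and 4.68, 4.72 and 4.82 in irZTL, a difference of 0.05 ± 0.09. Both probes gave differences under their standard errors, of opposite sign. RK14_LOTJA, the dimmest measured probe of the large subunit, read 3.23, 2.45 and 3.17 in EV and 2.67, 2.91 and 3.11 in irZTL, and RK14_SOYBN read 4.88, 4.13 and 4.83 in EV and 4.35, 4.54 and 4.74 in irZTL. EV replicate 2 differed from the mean of the other EV pools by -0.75 and -0.73, the widest such gaps among the measured members. The differences between genotypes were -0.06 ± 0.23 and -0.07 ± 0.22.

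The 5 measured RK22 probes differed by -0.11 to 0.03. RK22_AGRST, at the negative end, read 5.46, 5.23 and 5.66 in EV and 5.22, 5.36 and 5.46 in irZTL (-0.11 ± 0.14). RK22_NASOF, at the positive end, read 3.70, 3.32 and 3.84 in EV and 3.50, 3.60 and 3.84 in irZTL (0.03 ± 0.16). In each of the 5 probes EV replicate 2 was the lowest EV pool and irZTL replicate 3 the highest irZTL pool. These probes come from different contigs but share a protein name, so they may read one transcript.

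Among small-subunit proteins, RR18_WHEAT read 5.83, 5.83 and 5.92 in EV and 5.91, 5.92 and 5.75 in irZTL, a difference of 0.00 ± 0.09. RR18_CUSGR, the dimmest measured small-subunit probe, read -2.43, -2.65 and -2.13 in EV and -2.65, -2.45 and -2.37 in irZTL (-0.09 ± 0.15). The probes of this one name thus both showed no difference beyond the spread, one bright and one dim.

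RR11_PEA read 4.66, 4.23 and 4.75 in EV and 4.17, 4.23 and 4.68 in irZTL, with a difference of -0.18 ± 0.19, and RR11_DIOEL read 3.88, 3.57 and 4.10 in EV and 3.56, 3.66 and 4.06 in irZTL, with a difference of -0.09 ± 0.19. In both, irZTL replicate 3 lay above the other irZTL pools and close to EV replicates 1 and 3. The RR14_AETCO probe on contig NA1193 read -1.67, -1.68 and -1.55 in EV and -1.69, -1.82 and -1.58 in irZTL, and that on NA188071 read -1.69, -1.56 and -1.80 in EV and -1.76, -1.68 and -1.47 in irZTL. They share a species code and differed by -0.06 ± 0.10 and 0.05 ± 0.12.

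The probes for the nuclear-encoded ribosomal proteins differed by 0.00 ± 0.13 (RK28_TOBAC) and 0.02 ± 0.11 (RK121_SECCE). RK28_TOBAC read 4.81, 5.04 and 4.75 in EV and 4.78, 5.04 and 4.78 in irZTL. Replicate 2 was the highest pool of each group, where most plastid-encoded probes had their lowest EV value. RK121_SECCE showed the same order of replicate 2, at 5.69, 5.94 and 5.76 in EV and 5.81, 5.94 and 5.69 in irZTL.

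YCF probes held the largest negative difference. YCF15_CUSRE, named for a short reading frame of uncertain function in the inverted repeat, read -2.71, -2.87 and -2.38 in EV and -3.31, -3.07 and -2.97 in irZTL. Each irZTL pool lay below each EV pool, and the difference was -0.46 ± 0.16 (unadjusted p = 0.0233, limma adjusted p = 0.171). This probe was dim, with a processed signal of 27.1 to 46.0, and with another background correction (normexp, which models the background and adds an offset of 50) the difference was -0.15. YCF15_HELAN read -2.86, -2.87 and -2.97 in EV and -2.78, -2.97 and -3.45 in irZTL (-0.16 ± 0.18), and its low value was that of irZTL replicate 3 alone.

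YCF2 is a large protein of the plastid envelope. YCF2_ACOAM read -0.67, -1.31 and -0.62 in EV and -0.81, -0.90 and -0.81 in irZTL (0.03 ± 0.19), and YCF2_IPOPU read -2.63, -2.60 and -2.23 in EV and -2.57, -2.34 and -2.30 in irZTL (0.08 ± 0.14). The groups overlapped in both. YCF68_SACOF, a reading frame inside a transfer RNA intron, was the brightest YCF probe, at 5.12, 4.80 and 4.99 in EV and 5.15, 5.06 and 4.86 in irZTL, a difference of 0.05 ± 0.13. YCF4_SPIOL, an assembly factor of photosystem I, differed by -0.18 ± 0.13. Of the 6 measured YCF probes, 3 had a positive and 3 a negative difference, and 0 passed.

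Of the other genes, MATK_POPAL, the maturase that helps splice plastid introns, read 4.25, 3.98 and 4.08 in EV and 4.30, 4.25 and 4.21 in irZTL, a difference of 0.15 ± 0.10 (adjusted p = 0.486). CLPP_EPIVI, a subunit of the Clp protease, differed by 0.07 ± 0.10. ACCD is a subunit of the acetyl-CoA carboxylase of fatty acid synthesis. Its 3 probes differed by -0.12 ± 0.16 (ACCD_LACSA), -0.08 ± 0.15 (ACCD_NICSY) and -0.02 ± 0.13 (ACCD_NANDO).

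ACCD_LACSA read -0.26, -0.57 and -0.10 in EV and -0.53, -0.55 and -0.21 in irZTL, and ACCD_NANDO read 2.45, 2.13 and 2.51 in EV and 2.35, 2.25 and 2.42 in irZTL. The groups overlapped in each. CCSA, needed to attach haem to cytochromes, had probes CCSA_PEA at -0.35, -0.51 and 0.01 in EV and -0.38, -0.34 and -0.13 in irZTL, and CCSA_SOLBU at -0.48, -0.28 and -0.03 in EV and -0.35, -0.31 and -0.12 in irZTL. Their differences were 0.00 ± 0.15 and 0.00 ± 0.14.

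CEMA, an envelope membrane protein, had probes of very different brightness. CEMA_VICFA read 0.92, 0.91 and 1.24 in EV and 0.86, 0.74 and 1.13 in irZTL (-0.11 ± 0.15). CEMA_PELHO, the dimmest measured member by mean, read -2.78, -3.45 and -2.83 in EV and -2.99, -3.20 and -3.08 in irZTL (-0.07 ± 0.19). EV replicate 2 was the lowest pool of all 6 in the latter. No probe of this group passed, and the lowest adjusted p among its 9 was 0.486 in limma.

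**Figure D3:**
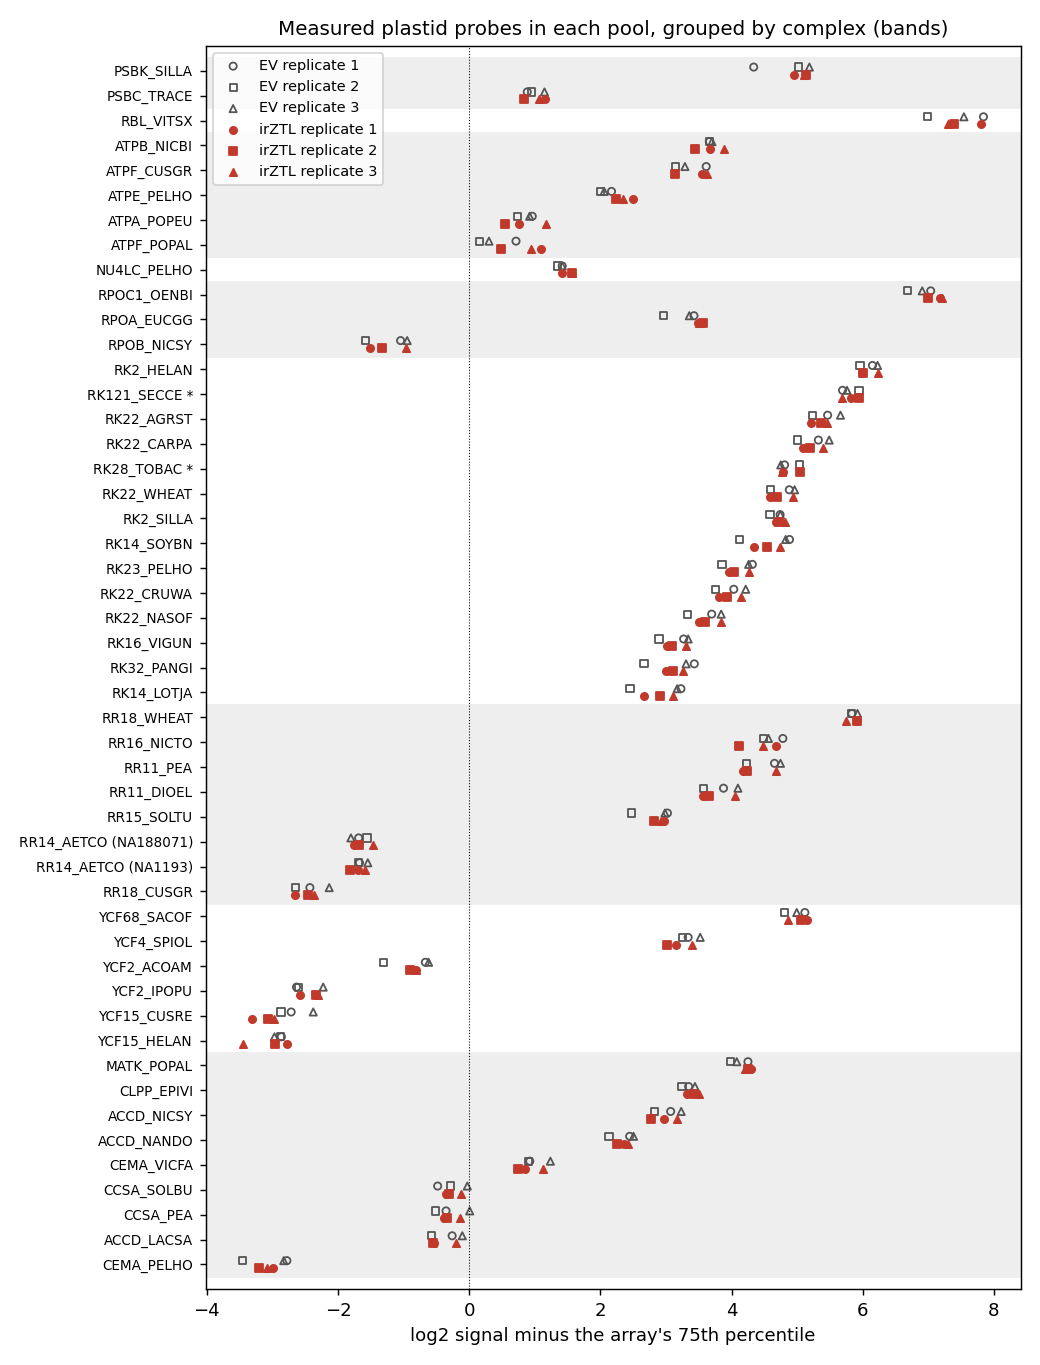
Level of each measured plastid probe in each pool (log2 processed signal minus the array's 75th percentile; open symbols EV, filled symbols irZTL, one shape per replicate number), grouped by complex in bands; an asterisk marks the 2 probes named for nuclear-encoded proteins. The EV and irZTL symbols of a probe lie close together from the dim YCF15 probes to RBL_VITSX, and the open square of EV replicate 2 is often at the left.

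Many plastid probes had the same order of pools within a genotype. This pattern was picked after the values were seen and carries no test. The median SD between replicates was 0.23 in EV for the members and 0.16 for all measured probes, and 0.15 and 0.14 in irZTL. The median level of the 49 members was 3.35, 2.97 and 3.34 in EV and 3.15, 3.11 and 3.40 in irZTL.

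EV replicate 2 was the lowest of the 3 EV pools in 40 of 49 members, against 26.9% of all measured probes. It lay below the mean of EV replicates 1 and 3 by a median of -0.32, while the median over all measured probes was 0.03. Among plastid-encoded ribosomal probes it was the lowest EV pool in 19 of 20, with a median of -0.39. It was the lowest EV pool in all 3 RNA polymerase probes and in 4 of 5 ATP synthase probes, and in neither photosystem II probe. All EV arrays were on slide 2, so this spread lay within one slide. The cause was not tested.

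In irZTL, replicate 3 was the highest pool in 33 of 49 members, against 37.9% of all measured probes, and lay above the mean of replicates 1 and 2 by a median of 0.18 (-0.01 over all measured probes). Replicate 3 was also the irZTL array on slide 2, so replicate and slide cannot be told apart here. RBL_VITSX did not share this, with irZTL replicate 3 at the lowest of its group.

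These orders are relative to other probes on the same array. Members not well above background on any array also had gaps in EV replicate 2 after scaling, of both signs. Examples are -0.37 in RK33_CITSI and -0.36 in RPOC1_TOBAC, but 0.22 in ATPE_CUSRE. The part of scaling in the plastid pattern was not tested. EV replicate 2 had the highest 75th percentile of signal, and with no scaling between arrays it was the lowest EV pool in 8 of 49 members and in 3.37% of all measured probes, and irZTL replicate 3 the highest of its group in 9 of 49 members and 14.9% of all. Set against all measured probes, the members' median gap was -0.36 for EV replicate 2 and 0.20 for irZTL replicate 3, and -0.24 and 0.13 with normexp. By construction, scaling by 1 number per array cannot alter such a relative gap, so it is no test of the part of scaling. With quantile normalization the counts were again 40 and 33. Among probes with a mean level over 3, a limit set after the values were seen, EV replicate 2 was lowest in 24 of 28 members and in 16.2% of all 4170 measured probes. Among dimmer probes it was lowest in 16 of 21 members and in 28.7% of all. The part of brightness was not tested.

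**Figure D4:**
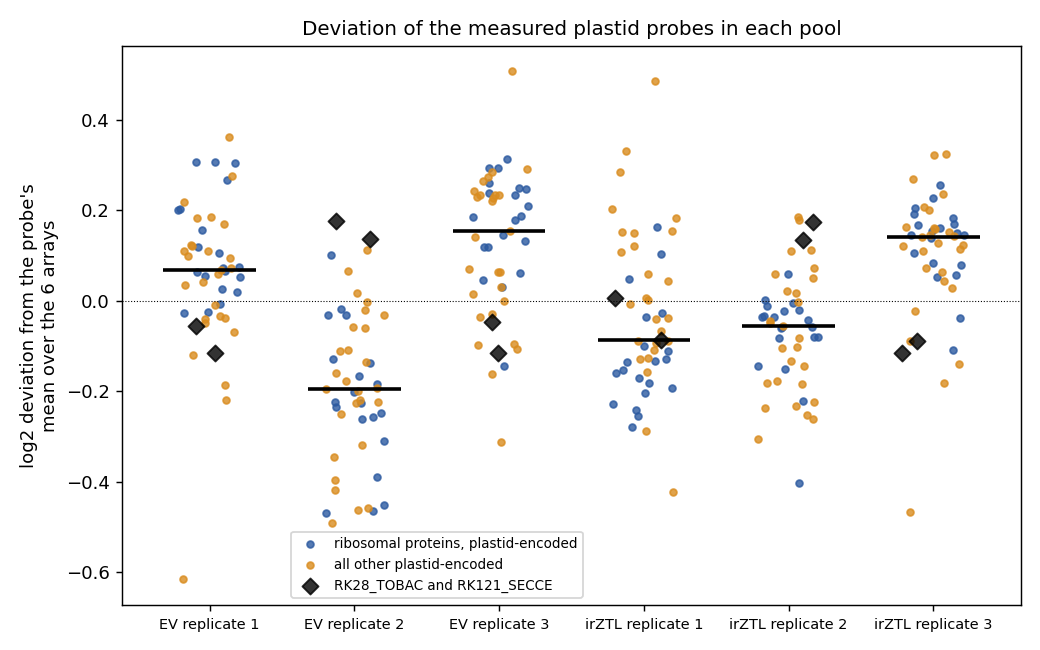
Deviation of each measured plastid probe from its own mean over the 6 arrays (log2, vertical axis) in each pool; blue points are plastid-encoded ribosomal proteins, orange points the other plastid-encoded members, black diamonds the probes of nuclear-encoded RK28_TOBAC and RK121_SECCE, and bars the median of all 49. The median is lowest in EV replicate 2 (-0.19) and highest in EV replicate 3 (0.15) and irZTL replicate 3 (0.14), and the diamonds lie above 0 in both replicate 2 pools.

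The sign of the small group difference depended on which pools entered. On slide 2 alone, irZTL replicate 3 against the 3 EV pools, 40 of 49 members were higher in irZTL and the median was 0.13. Without EV replicate 2, 36 of 49 members were lower in irZTL and the median was -0.12. Without EV replicate 3 the median was 0.05, with 36 members higher. The comparison on slide 2 rests on 1 irZTL array, assumed to vary like the EV arrays. No call is read from it.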

How the data were processed

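RNA of 6 peduncle pools was read on one-colour Agilent arrays. Per the file headers, the authors extracted spots with Agilent Feature Extraction 10.7.3.1 (9.5 per the submitters' processing notes) to a processed intensity per spot. Per the series' design text, the authors took log2 and scaled to the 75th percentile. On each array at least 99.89% of the deposited log2 values lay within 0.02 of those computed here, with column medians of -4.12 to -3.98 and no centring per probe.

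Control spots and outlier spots were left out (0 member spots), and spots of a probe were averaged as log2. The 75th percentile of each array was subtracted. Probes well above background on all arrays of a group were kept. Groups were compared with limma 3.58.1 in R 4.3.3 (two-sided) with Benjamini-Hochberg adjustment over 28684 probes. The fit was tested on simulated data.

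Probes with values in every pool were, per complex, the brightest and dimmest measured, those with an unadjusted p under 0.05 or a difference over 0.3, and the extremes among probes of one name. Values of RK28_TOBAC and RK121_SECCE were added after they were seen. Members and lists were chosen with earlier results of these data known. Deviations of same-numbered pools correlated at 0.39, 0.14 and 0.37 across probes, and those of differently numbered pools at -0.33 to 0.06. Across the measured members the values were 0.29, 0.19 and 0.45, against -0.59 to 0.15. The main fit did not pair the pools, and the replicate number entered as a block in an alternative fit alone. Alternatives were quantile and normexp processing, filters, slide and replicate blocks, the methods' t-test and leaving out arrays.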

Additional observations from a re-analysis of the deposited data

How the results depend on the processing

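The count of plastid probes past the threshold was 0 under every alternative run, among them quantile normalization, normexp on the median signal, no filter on dim probes, the deposited values, slide as a fixed or random block, slide 2 alone and the methods' t-test (0 at an adjusted p under 0.05 and 1 at an unadjusted p under 0.05). It was 0 to 0 with 1 array left out. With the replicate block it was 0, with the lowest adjusted p, 0.0661, for ATPF_POPAL, and the block changed no call of a member. Without a filter 79 probes entered in place of 49, by construction. The median difference of -0.01 ran from -0.12 to 0.05 with 1 array left out and was 0.13 with slide as a fixed block, which gives the same contrast as slide 2 by itself, since slide 1 held irZTL pools alone. With 1 irZTL array, the count of 0 there says nothing about stability. It was -0.02 without the nuclear-encoded members, chosen after seeing the data, and 0.00 over the 33 names at 1 probe each. Over 34 named probes and 544 values, 23 moved by more than the replicate SD and 27 probes turned in sign under at least 1 setting. The 7 that kept their sign were ATPE_PELHO (0.22 to 0.35), ATPF_POPAL (0.32 to 0.63), NU4LC_PELHO (0.10 to 0.17), MATK_POPAL (0.09 to 0.22), RPOC1_OENBI (0.16 to 0.33), YCF2_IPOPU (0.01 to 0.21) and YCF15_CUSRE (-0.57 to -0.15). On slide 2 alone YCF15_HELAN differed by -0.55. The cause was not tested. Over all measured probes the count of 503 was 689 with the replicate block, 207 when slide was a fixed block, 62 for slide 2 by itself, 267 with normexp, 260 with no filter, 77 with the methods' t-test, 1159 without a fold minimum, and 249 to 730 with 1 array left out. Signal near background limits the dimmest members, such as YCF15_CUSRE and CEMA_PELHO.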

Other observations

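The low place of EV replicate 2 was not particular to plastid names. Of 9 measured probes with mitochondrial protein names, EV replicate 2 was the lowest EV pool in 8, with a median of -0.52 against the other EV pools. Of 9 measured nuclear photosynthesis probes it was the lowest in 2, with a median of 0.10. In irZTL, replicate 3 was the highest pool in 6 of the 9 mitochondrial probes, with a median of 0.23 against the other irZTL pools. Among the 9 nuclear photosynthesis probes it was the highest in 4, with a median of 0.06. These values were looked up after the plastid pattern was seen, and the lists are short.

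Each probe name also carries a range of positions on its contig. Many of these ranges are cut short in the files, and for those the number printed is a lower limit. A position of 10000 or more was visible in 20 of the 79 names, and 7 of these probes were measured. Of the other 59 names, 42 belonged to measured probes. The 7 were ACCD_NANDO, RK22_CARPA, RK23_PELHO, RK28_TOBAC, RK32_PANGI, RR14_AETCO on NA1193 and RR15_SOLTU, of which RK28_TOBAC is named for a nuclear-encoded protein. The files do not say which contigs belong to the plastid genome.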
